A study of Mus musculus with 11 samples.

Results

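Cytochrome P450 enzymes and the reductase that feeds them electrons were followed through pancreas and epididymal fat of mice with obesity-related, alcohol-induced acute pancreatitis. The 9 genes are the P450 reductase *Por*, the second reductase *Cyb5r3*, the P450s *Cyp2b10*, *Cyp2f2*, *Cyp1a1* and *Cyp1b1*, the receptors *Ahr* and *Nr1i3* (CAR), and *Alas1* of heme synthesis. They were chosen by name after the counts of these same libraries, Control against Model, had been seen. Their values in those comparisons are therefore a description and carry no test. They are 9 of the 54532 genes in the pancreas table and 9 of the 46078 in the adipose table. Of the 9, 7 passed the filter on low counts in the pancreas and 8 in adipose tissue.

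All mice were male C57BL/6J, labelled wild type and 16 weeks old, and had begun their diet at 4 to 5 weeks of age. Control mice ate chow with 10 kcal% fat for 12 weeks and received saline. Model mice ate a high-fat diet with 60 kcal% fat over the same time and received ethanol at 2 g/kg into the peritoneum, in 2 injections 1 h apart. Tissue was taken 12 h after the first injection. Diet, ethanol and pancreatitis differ together between the groups and cannot be told apart here. There were 2 Control and 3 Model libraries of the pancreas and 3 Control and 3 Model libraries of adipose tissue. The labels number them as replicates and do not say whether each came from a separate mouse. Counts assigned to genes came to 14716716 and 14380578 in the pancreas Control libraries 1 and 2 and to 14465769, 14188832 and 17238919 in Model 1 to 3. In adipose tissue they came to 25840279, 22576100 and 27928097 in Control 1 to 3 and to 20825177, 21404197 and 20911383 in Model 1 to 3. Levels are given in CPM, a gene's counts relative to the scaled total of its library, with each tissue's libraries scaled to one another, and changes as log2 of Model over Control with a standard error (SE).

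Each tissue held its own markers. The most abundant gene of a list is here the one with the highest mean CPM over all libraries of a tissue, with no account of length. Acinar markers led the pancreas, with *Ctrb1* the most abundant, and 6 of 6 were called down there. Of 49 tested genes of a longer list of acinar secretory genes 24 were called down and 7 up. That list took 81.8% and 83.3% of the counts in pancreas Control 1 and 2, and 67.5%, 70.2% and 69.3% in Model 1 to 3. All 6 adipocyte markers were detected in every adipose library, led by *Fabp4*, with sums of 26081 to 29650.0 CPM. Adipose Control 2 stands apart, since the acinar list took 1.17% of its counts against 0.0186% to 0.0260% in the other adipose libraries. Pancreas Model 3 stands apart in its neutrophil markers, whose sum was 0.944 and 1.89 CPM in Control 1 and 2 and 12.3, 3.26 and 95 CPM in Model 1 to 3. Scaling by library totals alone moves the median change of all pancreas genes by 0.71 (log2), and that of adipose genes by −0.15. Directions that depend on this choice are named with the genes.

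Microsomal P450s oxidise drugs, toxins, steroids and fatty acids with electrons that NADPH passes to them through POR, and some reactions take an electron from cytochrome b5 by way of its own reductase. Genes of the CYP1 family are classic targets of the aryl hydrocarbon receptor, and *Cyp2b10* is the standard mouse target of the nuclear receptor CAR. All P450s carry heme, whose synthesis in most tissues begins with ALAS1, and the system is best known from liver, with lower activity in pancreas and fat.

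A gene is said to be called when its edgeR p-value, adjusted over all genes tested in that tissue, is under 0.05 and its fold change is at least 1.5. In the pancreas 3 of the genes met this upward (*Por*, *Cyp2b10* and *Cyp1b1*) and 1 downward (*Cyb5r3*), 3 did not and 2 were not tested. Of all 12884 pancreas genes tested, 29.8% were called, 16.2% up and 13.5% down. In adipose tissue 1 was called up (*Cyp1b1*), 1 down (*Cyp2f2*), 6 were not called and 1 was not tested, beside 25.1% of all 15839 genes tested, 12.1% up and 13.0% down. Since the genes were picked with these contrasts known, nothing is read from the counts.

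**Figure D1:**
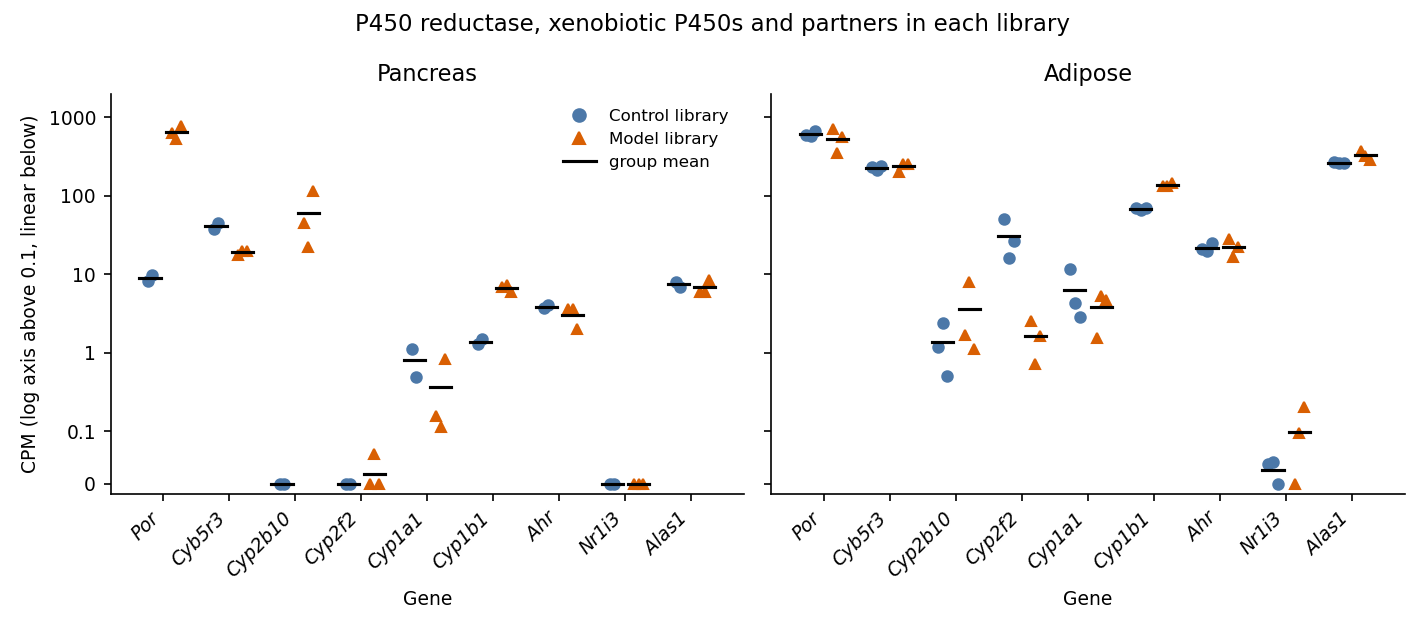
Level of each gene in every library, on the CPM scale, for the pancreas (2 Control, 3 Model) and adipose tissue (3 Control, 3 Model). Bars are group means, and the tissues were scaled apart.

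*Por* encodes the flavoprotein that most microsomal P450s depend on for NADPH electrons. In the pancreas it stood at 8.15 and 9.87 CPM in Control 1 and 2 and at 632, 531 and 767 CPM in Model 1 to 3. The groups are far apart, and the lowest Model library lies well above both Control libraries. In counts these are 95 and 99 against 12045, 9282 and 14662. The mean went from 9.01 (SD 1.22) to 643 (SD 118) CPM, a log2 difference of 6.16 (SE 0.25), or 71.4-fold. In bulk tissue a change in the number of cells of a type and in the RNA per cell cannot be told apart.

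In adipose tissue *Por* stood at 589.7, 572 and 673 CPM in Control 1 to 3 and at 702, 350.1 and 553 CPM in Model 1 to 3. Here the groups overlap, with the highest and the lowest value both in Model libraries. The log2 difference was −0.19 (SE 0.24) and changes sign without Model 2, to 0.04. The tables were scaled separately and do not list the same genes, with 45260 in both, so levels can be set side by side only roughly across tissues. The pancreas Model mean of 643 CPM and the adipose Control mean of 612 CPM are of the same order. Adipocyte markers in the pancreas summed to 28.9 and 42.4 CPM in Control 1 and 2 and to 48.8, 48.4 and 81.6 CPM in Model 1 to 3, most of it *Fabp4*, where adipose libraries held 26081 CPM or more. Of the 6 adipocyte markers 2 could be tested in the pancreas and 1 was called up, while 1 to 4 of the 6 were at 0 in each pancreas library. Their part in the *Por* values was not tested.

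*Cyb5r3* encodes the NADH-dependent reductase of cytochrome b5, the second electron route to P450s. Its pancreas level was 37.4 and 45.1 CPM in Control 1 and 2 and 17.9, 19.6 and 19.6 CPM in Model 1 to 3. The Model libraries lie close together, below both Control libraries. The log2 difference was −1.12 (SE 0.14), 2.17-fold down. With library totals alone it was −0.40 and the gene was not called. The direction is thus opposite to that of *Por* in the same libraries. In adipose tissue it was between 212 and 238 CPM in Control and between 200.4 and 256 CPM in Model libraries, a log2 difference of 0.06 (SE 0.13), or −0.08 with library totals alone. Its exons share 243 bases with *Gm49463* on the opposite strand, so part of its counts is uncertain where the strand setting of the counting is unknown.

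*Cyp2b10* encodes the phenobarbital-inducible P450 of mouse liver. Pancreas Control libraries held 0 counts of it in both replicates, and Model 1 to 3 held 848, 384 and 2199 counts, or 44.5, 22.0 and 115 CPM. Every Model library is far above the Control libraries, and Model 3 is the highest. The Model mean was 60.5 CPM (SD 48.5). Against 3 counts in each Control library it is at least 217-fold higher. Without Model 3 the lower bound is 119-fold, and without each of the other libraries in turn it is 202-fold to 287-fold. The call is lost without a count filter and without Control 1 or Control 2, and a filter of 10 counts in every library removes the gene.

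Model 3 is also the library with the most neutrophil RNA, led by *S100a9*. Of the 6 neutrophil markers 5 could be tested in the pancreas, and edgeR called 0 (1 at an unadjusted p under 0.05) where DESeq2 called 4 up. *Ly6g* and *Retnlg* had 0 counts in both Control libraries. The part of neutrophils in the *Cyp2b10* level was not tested.

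Because *Cyp2b10* is at home in hepatocytes and is also found in gut epithelium, the markers of both were looked up. In the pancreas 8 hepatocyte markers summed to 13.9 and 15.5 CPM in Control 1 and 2 and to 12.4, 7.78 and 14.9 CPM in Model 1 to 3. Of these markers 2 were tested and 0 called by edgeR or DESeq2 (1 at an unadjusted p under 0.05, upward). The most abundant was *Ttr*, which pancreatic islets also express, with 6.75 to 14.6 CPM. *Alb* was higher in every Model library than in either Control library. *Apoa1* and *Serpina1a* had 0 counts in all 5 pancreas libraries, *Cps1* at most 2, and *Alb* 4, 3, 59, 12 and 15 and *Fgb* 0, 0, 3, 0 and 16 counts in Control 1 and 2 and Model 1 to 3. Of the 6 enterocyte markers, *Alpi*, *Apoa4*, *Fabp2* and *Sis* were at 0 in all 5 and *Lct* had 1 count in Control 1, while *Vil1*, which other epithelia also express, stood at 0.343 and 0.199 CPM in Control 1 and 2 and 1.31, 0.458 and 1.67 CPM in Model 1 to 3. *Vil1* is higher in every Model library, and as the 1 marker of that list tested it was called by neither tool but passed an unadjusted p of 0.05, upward. With it the 6 markers summed to 0.429 and 0.199 CPM in Control and 1.31, 0.458 and 1.67 CPM in Model libraries. The part of either cell type in the *Cyp2b10* level was not tested.

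In adipose tissue *Cyp2b10* stood at 1.18, 2.42 and 0.511 CPM in Control 1 to 3 and at 1.71, 8.08 and 1.11 CPM in Model 1 to 3. The groups overlap and Model 2 alone is high. The log2 difference was 1.43 (SE 0.86) with that library and 0.07 without it. It was not called, except with the replicate number as a block.

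*Cyp2f2*, a P450 known from the club cells of the airways, was found in the other tissue. The pancreas held 1 count in all, in Model 2, so it was not tested there. Adipose Control 1 to 3 held 50.4, 16.1 and 26.5 CPM, and Model 1 to 3 held 2.54, 0.721 and 1.62 CPM. The groups do not overlap, although the Control libraries spread widely, and Control 1 is the highest. Means were 31.0 (SD 17.6) and 1.63 (SD 0.909) CPM, and the log2 difference of −4.26 (SE 0.58) ran from −3.71 (without Control 1) to −4.72 (without Model 1) when single libraries were left out. Of the 4 club and ciliated cell markers 0 passed the filter in adipose tissue. Their sums were 0.221, 0.508 and 0.238 CPM in Control 1 to 3 and 0.0518, 0.288 and 0 CPM in Model 1 to 3. *Scgb3a2* had 0 counts in all 6 libraries, and *Scgb1a1*, the most abundant, had 5, 5 and 6 counts in Control and 1, 6 and 0 in Model libraries. The part of club cells in the *Cyp2f2* values was not tested. Fibroblast and preadipocyte markers moved in the same direction, with sums of 2219, 2094 and 2512 CPM in Control 1 to 3 and 1245, 1636 and 1220.2 CPM in Model 1 to 3, led by *Dcn*. Of these 5 markers 2 were called down and none was at 0, and their part in the *Cyp2f2* values was not tested. Lymphocyte markers also moved down, with 6 of 6 called. Of 4 hepatocyte markers tested edgeR called 1 down and 0 up, while DESeq2 called 1 down and 1 up. At an unadjusted edgeR p under 0.05 there were 2 down and 1 up. Hepatocyte sums were 20.3, 26.5 and 23.6 CPM in Control 1 to 3 and 19.6, 21.0 and 19.6 CPM in Model 1 to 3. The part of lymphocytes and hepatocytes in the *Cyp2f2* values was not tested either. *Cyp2f2* shares 274 exonic bases with the antisense gene *Gm15883*, so its counts and its change are uncertain in the same way as those of *Cyb5r3*.

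*Cyp1b1*, a CYP1 enzyme of steroid and hydrocarbon metabolism that is common outside the liver, was called up in both tissues. Its pancreas level was 1.29 and 1.5 CPM in Control 1 and 2 and 6.88, 7.32 and 6.01 CPM in Model 1 to 3. All Model libraries exceed both Control libraries, with little spread inside either group, on counts of 15 and 15 against 131, 128 and 115. The log2 difference was 2.27 (SE 0.27), 4.83-fold. Adipose levels were 68.9, 65.8 and 69.5 CPM in Control and 133, 133 and 144 CPM in Model 1 to 3, again apart and tight. There the log2 difference was 1.01 (SE 0.08), 2.01-fold, from means of 68.1 (SD 1.98) and 137 (SD 6.06) CPM. With library totals alone the values were 2.99 in the pancreas and 0.86 in adipose tissue.

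*Cyp1a1*, the best-known AhR target, did not go with it. Pancreas counts were 13 and 5 in Control and 3, 2 and 16 in Model libraries, or 0.114 to 1.12 CPM, which is too few to measure a change of moderate size. The log2 difference was −1.11 (SE 0.88), or −0.41 without Control 1, and the groups overlap. In adipose tissue it stood at 11.8, 4.28 and 2.86 CPM in Control and 1.56, 5.34 and 4.65 CPM in Model 1 to 3. The high value is Control 1 and the rest intermingle. The log2 difference of −0.71 (SE 0.64) becomes 0.13 when Control 1 is left out.

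*Ahr* itself, the receptor that induces CYP1 genes, was low in the pancreas, at 3.69 and 4.09 CPM in Control 1 and 2 and 3.57, 3.60 and 2.04 CPM in Model 1 to 3. The Model values lie just under the Control values and Model 3 is the lowest. Its log2 difference was −0.34 (SE 0.33) and takes the other sign with library totals alone, 0.39. Adipose levels ran from 16.8 to 28.1 CPM, both ends of the range in Model libraries, with a log2 difference of 0.03 (SE 0.20) that is −0.16 without Model 1, −0.04 without Control 2 and −0.13 with library totals alone. *Nr1i3*, which encodes CAR, had 0 counts in all 5 pancreas libraries, and 1, 1 and 0 counts in adipose Control and 0, 2 and 4 in adipose Model libraries. It was tested in neither tissue, and a level under about 3 counts per library, 0.257 and 0.299 CPM in pancreas Control 1 and 2, is not detectable at this depth. The few *Nr1i3* counts are uncertain besides, since 3304 of its exonic bases overlap *Tomm40l* on the other strand. *Ahr* shares 127 such bases with *Gm48236*, and its counts too are uncertain for that reason.

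*Alas1* encodes the enzyme that starts heme synthesis outside red cells. It was at 8.07 and 6.88 CPM in pancreas Control 1 and 2 and at 5.99, 6.01 and 8.47 CPM in Model 1 to 3, so the groups overlap. The log2 difference of −0.13 (SE 0.23) is 0.56 with library totals alone. In adipose tissue all 3 Model libraries (375, 324 and 283 CPM) lay above the 3 Control libraries (267, 264 and 258 CPM). The log2 difference there, 0.32 (SE 0.13), passed neither the threshold on the adjusted p nor that on the fold change. It shares 465 exonic bases with the antisense gene *4930500F10Rik*, which leaves its counts uncertain too.

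**Figure D2:**
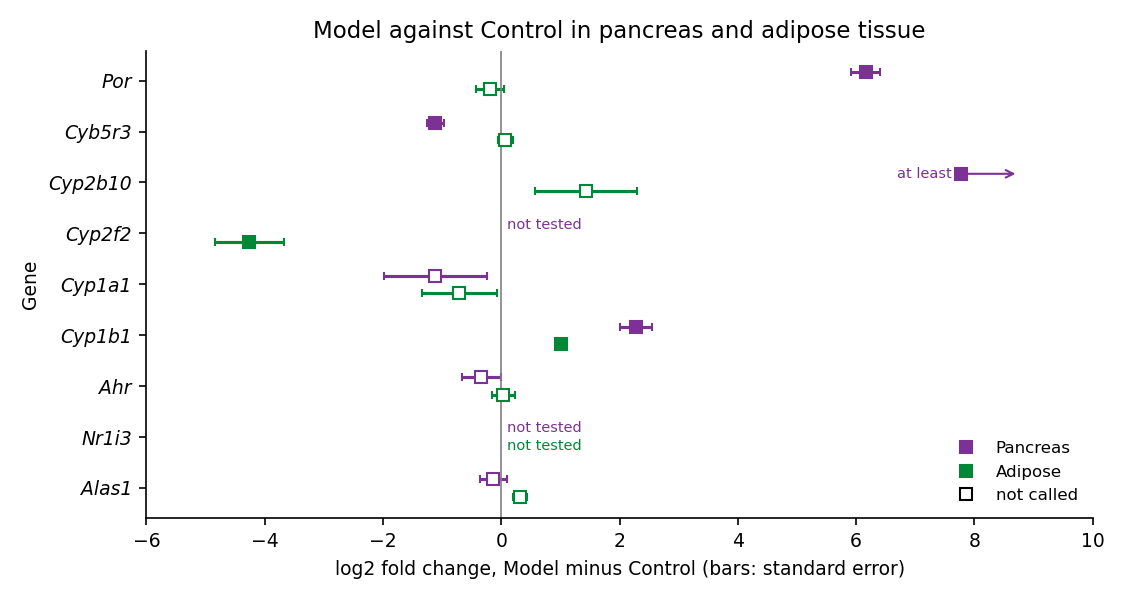
Log2 fold change, Model over Control, with its SE in both tissues, for every gene that passed the count filter. *Cyp2b10* in the pancreas is drawn as a lower bound. With library totals alone the pancreas values of *Ahr* and *Alas1* and the adipose values of *Ahr* and *Cyb5r3* change sign.

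Between genes, levels can be compared only per length, here as CPM per kb of gene length. In pancreas Control libraries *Cyb5r3* led with a mean of 9.60 (SD 1.26), followed by *Por* at 2.24 (SD 0.302), *Alas1* at 1.21 (SD 0.136) and *Ahr* at 0.631 (SD 0.0457). *Cyp1a1*, at 0.290 (SD 0.157), and *Cyp1b1*, at 0.271 (SD 0.0287), do not differ beyond their spread, and *Cyp2b10* was at 0. In pancreas Model libraries *Por* led at 160.0 (SD 29.4), rank 107 of 12884 genes against rank 4877 in Control. *Cyp2b10* came next at 28.6 (SD 23.0), rank 432, and then *Cyb5r3* at 4.42 (SD 0.234), rank 3003. *Cyp1b1*, at 1.31 (SD 0.130), and *Alas1*, at 1.10 (SD 0.232), lie within their spread of each other there, above *Ahr* at 0.498 (SD 0.145) and *Cyp1a1* at 0.133 (SD 0.145).

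Adipose tissue began from a different order. *Por*, at 152 (SD 13.4) CPM per kb and rank 219 of 15785, stood above *Cyb5r3* at 52.7 (SD 3.21) and *Alas1* at 42.6 (SD 0.774) in Control libraries. *Cyp2f2*, at 15.3 (SD 8.70), and *Cyp1b1*, at 13.3 (SD 0.385), could not be ordered beyond their spread, nor could *Cyp1a1*, at 2.27 (SD 1.73), be set apart from *Ahr* at 3.55 (SD 0.463) or from *Cyp2b10* at 0.648 (SD 0.457). *Nr1i3*, which was not tested, was lowest at 0.00599 (SD 0.00522). In Model libraries *Cyp1b1*, at 26.7 (SD 1.18), had moved from rank 3250 to 1826, and *Cyp2f2*, at 0.803 (SD 0.449), from rank 2831 to 12424. *Por*, at 133 (SD 43.9), was again the highest, and *Cyb5r3*, at 55.2 (SD 7.38), and *Alas1*, at 53.0 (SD 7.43), lay within their spread of each other. *Ahr*, at 3.63 (SD 0.918), and *Cyp1a1*, at 1.38 (SD 0.723), lay below *Cyp1b1*, and *Cyp2b10*, at 1.72 (SD 1.83), could be ordered against neither of them. *Nr1i3* was again lowest, at 0.0225 (SD 0.0229).

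The supply of reductase can be set beside the P450s it serves by adding up the microsomal P450s per length. Of 94 listed symbols of microsomal P450s 92 were found in each table and were summed. *Tbxas1* and *Ptgis*, which need no reductase, are not among them. The same gene appears as *Cyp2c23* in the pancreas table and as *Cyp2c44* in the adipose table. In the pancreas the sum was 35.6 and 37.6 CPM per kb in Control 1 and 2 and 73.7, 63.1 and 108 CPM per kb in Model 1 to 3. The ratio of *Por* to that sum was 0.0569 and 0.0653 in Control and 2.13, 2.09 and 1.76 in Model libraries. *Por* thus goes from well under the P450 sum to above it, in RNA per length, in every Model library. *Cyp39a1*, an oxysterol hydroxylase, was the most abundant P450 of 4 pancreas libraries, with 26.1% to 40.8% of the sum, and *Cyp2b10* was that of Model 3, with 50.2%. In adipose tissue the sum was 3269, 3133 and 4805 CPM per kb in Control 1 to 3 and 3140.0, 1679 and 1480.3 in Model 1 to 3, and 84.0% to 95.7% of it was *Cyp2e1*, the ethanol-oxidising P450. The ratio there was 0.0449, 0.0454 and 0.0348 in Control and 0.0556, 0.0519 and 0.0928 in Model libraries. The adipose groups do not overlap in the ratio, but they do in *Por* and in the sum.

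**Figure D3:**
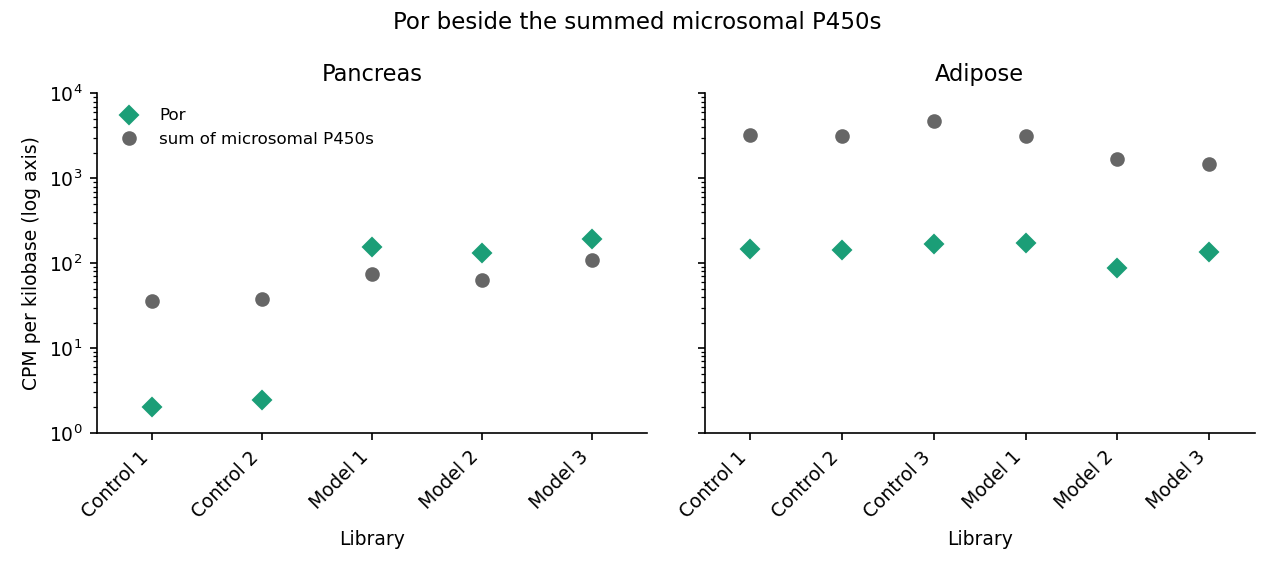
*Por* against the summed microsomal P450s in each library, both in CPM per kb. The tissues were scaled apart.

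The 9 genes lie on 7 chromosomes of GRCm38. *Por* (ENSMUSG00000005514) is at chr5:135670033-135735326 on the plus strand, *Cyb5r3* (ENSMUSG00000018042) at chr15:83153494-83172592 on the minus strand, and *Nr1i3* (ENSMUSG00000005677) at chr1:171213970-171220701 on the plus strand. *Cyp2b10* (ENSMUSG00000030483) at chr7:25897620-25926624 and *Cyp2f2* (ENSMUSG00000052974) at chr7:27119909-27133660, both on the plus strand, are 1193285 bases apart. *Cyp1a1* (ENSMUSG00000032315) at chr9:57687928-57703824, plus strand, shares its chromosome with *Alas1* (ENSMUSG00000032786) at chr9:106233455-106248654, minus strand. *Cyp1b1* (ENSMUSG00000024087) at chr17:79706953-79715041 and *Ahr* (ENSMUSG00000019256) at chr12:35497974-35535038 are on the minus strand. No exon of *Por*, *Cyp2b10*, *Cyp1b1* or *Cyp1a1* overlaps a gene on the other strand, and 0% of the 150-base stretches of each gene's longest transcript occur in a transcript of another gene.

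The nearest tested genes on either side of *Por* were looked up after its level had been seen. *Rhbdd2*, whose nearer end lies 23585 bases before it, went from a mean of 6.06 to 14.4 CPM in the pancreas, a log2 difference of 1.24 (SE 0.27, adjusted p = 0.00951). *Tmem120a*, 159 bases after it, went from 8.64 to 22.5 CPM, 1.38 (SE 0.24, adjusted p = 0.00384). *Rhbdd2* is not called without Control 1 (adjusted p = 0.0713) or Control 2 (0.0965), and *Tmem120a* is not called without Control 1 (0.0584). In adipose tissue neither was called, with log2 differences of −0.10 (adjusted p = 0.549) and −0.50 (adjusted p = 0.278).

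Promoters from RefSeq, on build GRCm38.p6, cover 250 bases before to 50 after a gene's start. They matched 7 of the 9 genes, while *Ahr* and *Cyb5r3* have no entry. The windows of the reductase and of the P450s of the CYP1 and CYP2B families are shown: *Por*, *Cyp2b10* and *Cyp1b1*, called up in the pancreas, and *Cyp1a1*, which was not called, for comparison. They are printed with GCGTG, the core of the sequence that the AhR binds, in capitals on either strand (CACGC where it lies on the other strand). Of 32851 promoters of the same length 32.4% hold GCGTG, and 5.07% hold the longer TNGCGTG, which contains it. None of the windows matched to the 7 genes holds TNGCGTG on either strand.

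The *Por* window, chr5:135688895-135689194 on the plus strand, is 67.3% G and C and holds GCGTG 3 times, beginning 202, 62 and 24 bases before the start. It also holds GGGCGG, present in 35.7% of promoters, 4 times. This start lies inside the longer gene span of the authors' table.

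Por: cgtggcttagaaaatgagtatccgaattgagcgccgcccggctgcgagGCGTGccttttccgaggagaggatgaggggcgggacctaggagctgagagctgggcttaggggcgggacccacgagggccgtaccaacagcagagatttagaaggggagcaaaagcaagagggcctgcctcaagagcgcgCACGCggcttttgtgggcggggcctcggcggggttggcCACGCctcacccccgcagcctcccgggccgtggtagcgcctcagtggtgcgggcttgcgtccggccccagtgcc

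The *Cyp2b10* window, chr7:25897408-25897707 on the plus strand, holds the core 2 times, 101 and 9 bases before the start.

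Cyp2b10: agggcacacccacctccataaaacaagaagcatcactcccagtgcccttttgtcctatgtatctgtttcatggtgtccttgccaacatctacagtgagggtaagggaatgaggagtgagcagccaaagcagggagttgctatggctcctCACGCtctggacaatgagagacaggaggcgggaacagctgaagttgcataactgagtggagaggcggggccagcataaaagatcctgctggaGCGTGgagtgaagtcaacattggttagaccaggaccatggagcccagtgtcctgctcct

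The *Cyp1b1* window, chr17:79715012-79715311 on the minus strand, holds it 1 time, 76 bases before the start, beside 1 GGGCGG.

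Cyp1b1: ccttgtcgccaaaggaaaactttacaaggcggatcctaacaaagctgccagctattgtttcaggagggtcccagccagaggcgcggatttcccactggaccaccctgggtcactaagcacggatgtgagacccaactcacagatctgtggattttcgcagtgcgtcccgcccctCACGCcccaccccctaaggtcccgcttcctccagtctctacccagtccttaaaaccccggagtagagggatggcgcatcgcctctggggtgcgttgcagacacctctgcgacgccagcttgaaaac

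The *Cyp1a1* window, chr9:57697363-57697662 on the plus strand, holds it 1 time, 54 bases before the start, and the TATA sequence TATAAA, found in 13.6% of promoters, 30 bases before it. The window again lies inside the longer span of the authors' table.

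Cyp1a1: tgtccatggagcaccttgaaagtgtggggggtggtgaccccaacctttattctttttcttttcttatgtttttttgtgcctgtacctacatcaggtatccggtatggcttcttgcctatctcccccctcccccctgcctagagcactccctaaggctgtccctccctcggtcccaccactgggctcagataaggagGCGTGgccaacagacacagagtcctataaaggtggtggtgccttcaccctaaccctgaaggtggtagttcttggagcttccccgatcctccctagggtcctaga

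GCGTG is not in the window of *Cyp2f2* or of *Nr1i3*, and is present 1 time in each of the 2 windows listed for *Alas1*. Those 2 windows overlap, and the match is the same site in both. AGGTCA, a half-site that many nuclear receptors bind, is in the *Cyp2f2* window 221 bases before the start and in 16.3% of promoters, and CACGTG is in that of *Nr1i3*, 244 bases before, and in 7.15%. A match describes the letters of a window and is neither a binding site nor a cause, and a window with no match says only that these letters are not in it.

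The genes whose log2 CPM most resembled that of the genes with the largest differences, by Pearson's r over the 11 libraries of both tissues among 17045 other genes, differ from gene to gene. For *Por* they were *Csnk1e* and *Glg1* (both r = 0.979), *Elk4* (0.975), *Scaf8* (0.973) and *Nek3* (0.972). *Cyp2b10* was most like *Gna13* (r = 0.982), *Llgl1* (0.981), *Mark3* (0.975), *Osbpl5* and *Fbxo30* (both 0.968). *Cyp2f2*, high only in adipose Control libraries, was nearest to *Agpat2* (r = 0.991), *Lama1* (0.987), *2600014E21Rik* (0.985), *Tnfaip8l3* (0.984) and *Lypd1* (0.982). For *Cyp1b1* the list was *Plekhm1* (r = 0.995), *Cttnbp2nl* and *Stt3b* (both 0.992), *Pttg1* (0.990) and *Myo1c* (0.988). Such values are a description, since the libraries fall into tissues and groups and the differences between these enter r. The share of genes with r above 0.9 was 0.692%, 1.14%, 2.63% and 4.68% for *Por*, *Cyp2b10*, *Cyp2f2* and *Cyp1b1*.

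**Figure D4:**
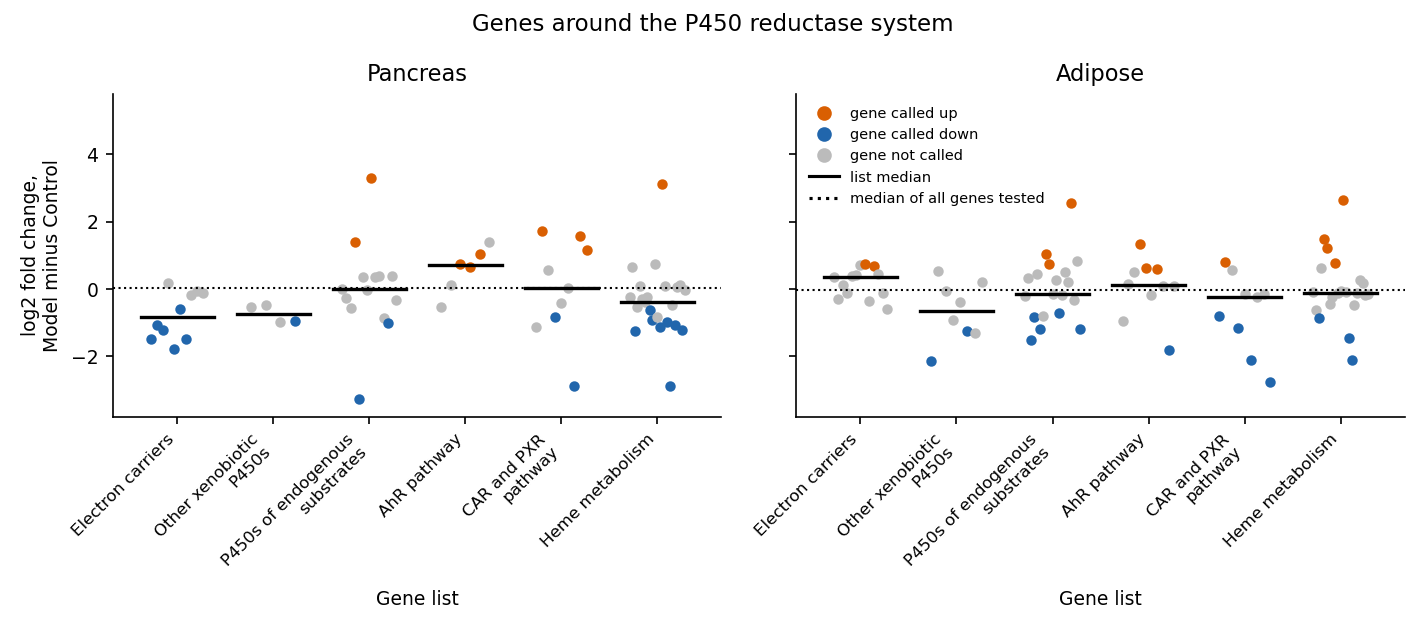
Log2 fold changes of the 6 lists of related genes in each tissue, with list medians and the median of all genes tested. With library totals alone the pancreas values shift up by 0.71 and the adipose values by −0.15, which turns the pancreas medians of the P450s of endogenous substrates and of heme metabolism and the adipose median of the AhR pathway to the other sign.

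Around these 9 genes, 161 other gene symbols were listed by role, among which *Cyp2c23* and *Cyp2c44* name the same gene. In the pancreas 65 were tested, 9 called up and 18 down (16.2% and 13.5% of all genes). Their median log2 change was −0.26, beside 0.04 for all genes. With library totals alone they were 25 up and 4 down, with a median of 0.43 beside 0.75, while of all 12884 genes 5843 were up and 506 down under that scaling. In adipose tissue 79 were tested, 13 up and 14 down, with a median of −0.11 beside −0.01 for all genes (12.1% up, 13.0% down), or 8 up and 18 down with library totals, median −0.26 beside −0.17, where 1365 of all 15839 genes were up and 2885 down. These shares and medians of all genes are the background for the counts of every single list below.

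Electron carriers other than POR include genes called down beside *Cyb5r3* in the pancreas. Of 10 tested, 0 were called up and 6 down (16.2% and 13.5% of all pancreas genes), median −0.83 (0 up also in DESeq2 and at an unadjusted p under 0.05), and with library totals alone 3 up and 2 down, median −0.12. Cytochrome b5 itself, *Cyb5a*, was 30.3 and 36.0 CPM in Control and 11.4, 15.4 and 8.37 CPM in Model libraries, below both Control libraries in 3 of 3, and fell by 1.5 on the log2 scale (SE 0.24, adjusted p = 0.00322). Its outer mitochondrial counterpart *Cyb5b* (63.3 to 30.3 CPM, −1.06, adjusted p = 0.00141) and the reductase *Cyb5r1* (12.0 to 5.13 CPM, −1.23, adjusted p = 0.00249) fell as well, and both lose the call with library totals alone. All 3 have the opposite sign to *Por* in the same libraries. Acinar markers fell in these libraries too, with 6 of 6 called down. Of 49 acinar secretory genes tested 24 were called down and 7 up. Their part in the changes of the carriers was not tested. In adipose tissue 13 carriers were tested, 2 called up and 0 down, also in DESeq2 (2 down at an unadjusted p under 0.05), median 0.35. These were *Mtrr*, a diflavin reductase related to POR that serves methionine synthase (13.4 to 21.7 CPM, 0.70, adjusted p = 0.00267), and the ferredoxin *Fdx1l* (13.3 to 22.1 CPM, 0.73, adjusted p = 0.00967). Both miss the fold threshold with library totals alone, where 0 carriers are up and 1 is down. Adipose *Cyb5a*, the most abundant carrier there (432 to 549 CPM), was not called (0.35, adjusted p = 0.0798).

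Other P450s of the drug-metabolising families were often without a count. In the pancreas 56 of the 58 listed symbols are in the table, 18 had any count, and 4 were tested, with 0 up and 1 down, median −0.75. The symbol *Cyp2c44* is missing there because its gene is named *Cyp2c23*, and the reverse holds in adipose tissue. The 1 was *Cyp3a13* (7.29 to 3.76 CPM, −0.96, adjusted p = 0.0124), which is not called with library totals alone (−0.26) or without Control 1, Control 2 or Model 1 (adjusted p = 0.113, 0.0638 and 0.0513). *Cyp2j6*, the most abundant of them, had 9.10 and 10.5 CPM in Control and 8.09, 6.52 and 6.59 CPM in Model libraries and was not called (−0.47, adjusted p = 0.098), and its sign turns with library totals alone, to 0.26. Beside *Cyp2b10*, 0 P450s of this list were called up by edgeR, by DESeq2, at an unadjusted p under 0.05 or with library totals alone. In adipose tissue 28 of 56 had any count and 8 were tested, 0 up (0 also in DESeq2 and at an unadjusted p under 0.05) and 2 down, median −0.65, and the counts are equal with library totals alone. Those down were *Cyp2ab1* (2.72 to 0.617 CPM, −2.13, adjusted p = 0.00141) and *Cyp2j9* (16.1 to 6.74 CPM, −1.26, adjusted p = 0.00269), lower in 3 of 3 Model libraries as *Cyp2f2* was. *Cyp2e1* dominated, at 6603, 6329.7 and 9923 CPM in Control 1 to 3 and 6361, 3067 and 2683 CPM in Model 1 to 3. Model 1 lies among the Control libraries, and the gene was not called (−0.92, SE 0.37, adjusted p = 0.0892) unless Model 1 was left out (−1.40, adjusted p = 0.0105) or DESeq2 was used (adjusted p = 0.0181).

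Among P450s of sterols, fatty acids, retinoids and prostanoids 14 were tested in the pancreas, with 2 up, 2 down and a median of −0.01, which is 0.69 with library totals alone (6 up, 1 down). *Cyp39a1* rose from 28.4 and 33.8 CPM in Control to 84.9, 78.7 and 82.1 CPM in Model libraries, 3 of 3 above both Control libraries (1.40, SE 0.14, adjusted p = 0.000409). *Cyp4f15*, a fatty acid hydroxylase, rose from a mean of 0.606 to 6.02 CPM (3.30, SE 0.50, adjusted p = 0.00224). The cholesterol hydroxylase *Cyp46a1* fell from 3.41 to 0.349 CPM (−3.27, adjusted p = 0.0044), although not past the threshold without Control 2 (adjusted p = 0.0618), and the change is −3.97 without Model 2. *Cyp51* of cholesterol synthesis, 3.19 to 1.57 CPM (−1.01, adjusted p = 0.048), lost its call with library totals alone, without a count filter, with DESeq2 and without any of Control 1, Control 2, Model 1 and Model 2.

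Adipose tissue had 19 of these P450s tested, 3 up and 5 down, median −0.16 (2 up and 5 down with library totals alone, median −0.31). *Cyp7b1*, an oxysterol hydroxylase, rose from 1.18, 0.890 and 0.953 CPM to 5.18, 5.77 and 6.72 CPM (2.54, SE 0.22, adjusted p = 0.000537). *Cyp4b1*, the most abundant of the list over all libraries, though just under *Cyp4v3* (91.9 CPM) in Control libraries, rose from 90.5 to 152 CPM (0.75, adjusted p = 0.00729), and *Cyp4a32* from 0.691 to 1.41 CPM (1.03, adjusted p = 0.0378), the latter with adjusted p from 0.0529 to 0.126 in the 9 alternatives that end its call. Thromboxane synthase *Tbxas1* (17.9 to 7.77 CPM, −1.20, adjusted p = 0.00293), the retinoic acid hydroxylase *Cyp26b1* (6.29 to 2.20 CPM, −1.52, adjusted p = 0.00639) and *Cyp39a1* (4.2 to 1.82 CPM, −1.20, adjusted p = 0.00843) fell. *Cyp39a1* thus has opposite signs in the tissues, and they differ by −2.60 (adipose minus pancreas) in the tissue by condition test.

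The AhR pathway list had 6 genes tested in the pancreas, 3 up and 0 down (0 down also in DESeq2, 1 at an unadjusted p under 0.05), median 0.70, and 5 up and 0 down with library totals alone. All 3 encode the chaperone complex that holds the receptor in the cytosol and serves many other proteins. The co-chaperone *Ptges3* rose from 8.07 and 9.87 CPM to 16.7, 18.2 and 20.6 CPM (1.05, SE 0.18, adjusted p = 0.00333). *Hsp90ab1* (0.66, adjusted p = 0.012) and *Hsp90aa1* (0.74, adjusted p = 0.0153) rose too, but fall under the fold threshold without Model 3 (0.52 and 0.52) and with the replicate block (0.52 and 0.52), which leaves Model 3 out, and miss the p threshold without Control 1 (adjusted p = 0.0868 and 0.105) or Control 2 (0.132 and 0.122), as does *Hsp90ab1* without Model 1 (0.0607). In adipose tissue 10 were tested, 3 up and 1 down, median 0.12 (1 up and 1 down with library totals alone, median −0.03). *Hsp90aa1* rose from 227 to 571 CPM (1.33, SE 0.18, adjusted p = 0.00232), while *Ptges3* (0.61, adjusted p = 0.0117) and *Hsp90ab1* (0.64, adjusted p = 0.0259) lose their calls with library totals alone and without Control 1, Model 1 or Model 3, *Hsp90ab1* also without Control 2 or Control 3 and with the replicate block (adjusted p = 0.0543), and *Ptges3* also without a count filter (0.58). The AhR target *Ugt1a6a*, a glucuronosyltransferase, fell from 3.20 to 0.912 CPM (−1.80, SE 0.27, adjusted p = 0.00301), opposite to *Cyp1b1* in the same libraries.

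For CAR and its relative PXR, 9 listed partners and targets were tested in the pancreas, 3 up and 2 down, median 0.04 (5 up and 1 down with library totals alone). The RXR partners of CAR were among them. *Rxra* rose from 34.2 and 31.4 CPM to 102, 97.0 and 96.6 CPM (1.59, SE 0.13, adjusted p = 0.000197), and *Rxrb* from 22.8 to 50.6 CPM (1.15, SE 0.14, adjusted p = 0.000842), each higher in 3 of 3 Model libraries. The transporter *Abcc3* rose from 5.42 to 18.0 CPM (1.73, adjusted p = 0.0114; 0.105 without Control 1 and 0.0624 without Control 2). The coactivator *Ppargc1a* fell from 3.78 to 0.518 CPM (−2.87, adjusted p = 0.00718; 0.0655 and 0.0618 without Control 1 and Control 2), and the change is −3.81 without Model 2. The epoxide hydrolase *Ephx1* fell from 11.5 to 6.53 CPM (−0.82, adjusted p = 0.013), a call lost with library totals alone and without Control 1 (adjusted p = 0.128), Control 2 (0.0546) or Model 1 (0.0531).

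In adipose tissue 1 of 9 was up and 4 were down, median −0.24 (1 up and 4 down with library totals alone, median −0.39). *Abcc3* rose there as well, from 16.3 to 28.2 CPM (0.79, adjusted p = 0.00655). *Rxrg* fell from 21.4, 17.8 and 14.6 CPM to 3.47, 2.60 and 1.82 CPM (−2.77, SE 0.26, adjusted p = 0.000699), *Ppargc1a* from 11.4 to 2.65 CPM (−2.11, adjusted p = 0.000569) and *Ephx1* from 77.8 to 34.7 CPM (−1.17, adjusted p = 0.00155). *Rxra*, at 247 to 209 CPM the most abundant of the list, was not called (−0.24, adjusted p = 0.129).

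Heme genes, which include the steps after *Alas1*, numbered 23 in the pancreas, all tested. Of these 1 was up and 8 were down (16.2% and 13.5% of all pancreas genes), with a median of −0.38 beside 0.04 for all genes. The median is 0.33 with library totals alone (6 up, 1 down), beside 0.75 for all genes. *Hmox1*, which breaks heme down, was 1.20 and 1.5 CPM in Control and 4.62, 10.2 and 20.3 CPM in Model libraries (3.12, SE 0.76, adjusted p = 0.0249), a call lost without a count filter (0.0854) and without Control 1 (0.151) or Control 2 (0.131). Without Model 3, the highest library, its log2 change is 2.41. Neutrophil markers were also highest in Model 3, with a sum of 95 CPM against 0.944 to 12.3 CPM in the other pancreas libraries. Their part in the *Hmox1* values was not tested. The glycine carrier *Slc25a38* (16.4 to 7.83 CPM, −1.06, adjusted p = 0.00215), ferrochelatase *Fech* (24.3 to 12.8 CPM, −0.93, adjusted p = 0.00349) and *Nr1d1*, the heme-binding clock receptor (38.6 to 19.8 CPM, −0.96, adjusted p = 0.00322), fell, and none of the 3 is called with library totals alone. Acinar markers were called down in the same libraries, and their part in the changes of the heme genes was not tested. *Slc48a1*, a heme transporter and the most abundant of the list over all libraries, though below *Nr1d1* and *Clpx* in Control libraries, had means of 32.8 CPM in Control and 34.3 CPM in Model libraries (0.07, adjusted p = 0.719), and is called up (0.77) with library totals alone.

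In adipose tissue 21 heme genes were tested, 4 up and 3 down, median −0.11 (4 up and 6 down with library totals alone, median −0.26). *Hmox1* rose from 45.1, 49.5 and 38.1 CPM to 227, 244 and 363 CPM (2.65, SE 0.21, adjusted p = 0.000451). The heme-responsive repressor *Bach1* rose from 47.8 to 134 CPM (1.48, adjusted p = 0.00037) and biliverdin reductase *Blvra* from 22.5 to 52.2 CPM (1.21, adjusted p = 0.00267). *Nr1d1* fell from 433 to 157 CPM (−1.46, adjusted p = 0.00692). *Alad*, the step after *Alas1*, fell from 70.7 to 39.1 CPM (−0.85, adjusted p = 0.029), with adjusted p between 0.0715 and 0.0858 without Control 1, Control 3, Model 2 or Model 3, and *Ppargc1a* is the third gene called down. Macrophage and neutrophil RNA moved along with these genes in adipose tissue. Macrophage markers, led by *Lyz2*, summed to 743, 898 and 791 CPM in Control and 919, 930 and 1334 CPM in Model libraries, 3 of 6 up, 1 down and none at 0. The neutrophil markers summed to 6.57, 11.7 and 12.4 CPM in Control and 156, 144 and 178 CPM in Model libraries, with 5 of 5 tested up and none at 0, *S100a9* the most abundant in the Model libraries and *Csf3r* in the Control libraries. Their part in the changes of the heme genes was not tested.

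The 2 tissues were compared directly only for genes named from the lists by role, through a tissue by condition term fitted to all 11 libraries. It was called for 13 of the 37 genes named from the lists by role that were tested, beside 20.6% of all 17046 genes. Most of these genes are named for a small p in the contrast of one of the tissues, which enters this term, so the count is a description and nothing is read from it against that share. The 9 main genes were left out of that test because they had been chosen with both contrasts known. Side by side, *Por* differed in the pancreas by 6.16 and in adipose tissue by −0.19, *Cyb5r3* by −1.12 and 0.06, and *Cyp1b1* by 2.27 and 1.01 (log2), and the differences between these pairs were not tested.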

How the data were processed

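Counts per gene are those the authors deposited, in 1 table per tissue. Per the study's methods and the submitters' processing notes, the authors trimmed reads with Trim Galore (0.6.6), checked them with fastp (0.20.1), aligned to GRCm38 with STAR and counted with featureCounts (2.0.1). The annotation release and the strand setting of the counting are not given in the sources used here. The 9 genes and all lists were chosen with earlier results of these data known.

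Libraries were grouped by label and each tissue was fitted on its own in edgeR 4.0.16 (R 4.3.3): filterByExpr, TMM factors, robust quasi-likelihood fit and test, Benjamini-Hochberg adjustment over the genes kept, with thresholds of 0.05 for the adjusted p and 1.5 for the fold change. An SE is the log2 change divided by the square root of F. CPM uses TMM-scaled library sizes, and r uses log2 CPM with prior count 2. A fold change against a group with no library above 3 counts is a lower bound, computed with 3 counts per library. Such floors cover counting error only. Lengths are those listed beside the authors' pancreas counts and were used for adipose levels too, although the tables do not list the same genes. The tissue by condition term used the 45260 genes in both tables, of which 17046 were kept. Named genes are the 9, up to 3 called genes with the smallest p in each direction from each list and tissue, each list's most abundant gene, the 5 genes most like *Por*, *Cyp2b10*, *Cyp2f2* and *Cyp1b1*, and the top gene of each marker list.

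Replicates differed by more than counting noise (lowest chi-square per degree of freedom 6.91), which separate preparations of a sample could also do. P-values rest on the spread between libraries. Same-numbered Control and Model libraries are not pairs by label. After removal of group means their correlations were 0.00147 and −0.0410 in the pancreas and −0.00580, 0.0562 and −0.163 in adipose tissue. Libraries of different number ran from −0.250 to 0.293 in adipose tissue. With 2 Control libraries, removal of the mean makes one the mirror image of the other, so the pancreas values cannot decide on pairing. Alternatives were DESeq2 1.42.0, its size factors, library totals, TMM without acinar genes, no filter, at least 10 counts in every library, a fold change of 2, each library left out and the replicate number as a block, which in the pancreas uses replicates 1 and 2. The neighbours of *Por*, the microsomal P450 sum, the shared counts of the tissue by condition test the *Cyp2b10* bound without each library, the settings that change a call of the 9 genes and the list counts by DESeq2 and at an unadjusted p were added after the data were seen. The submitters' own test results were not used here. Exon overlaps and transcript stretches come from GENCODE M21 on the same genome build. The tests were also tested on simulated data.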

Additional observations from a re-analysis of the deposited data

Results flagged for a closer look

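The change from Control to Model differed between the tissues, by the edgeR test of the tissue by condition term, for 13 of the 37 genes named from the lists by role, here as adipose minus pancreas on the log2 scale. Most named genes were picked for a small p in one tissue's contrast in these same libraries, so the count is a description and no independent test. Positive values were found for *Cyp46a1* (2.484), *Cyb5a* (1.830), *Blvra* (1.507), *Bach1* (1.396), *Cyb5r1* (1.344), *Cyp51* (1.221), *Slc25a38* (0.925), *Mtrr* (0.873) and *Fech* (0.812). Negative ones were found for *Cyp39a1* (−2.599), *Rxra* (−1.832) and *Rxrb* (−1.314). *Cyp7b1* (3.477) is set apart, since its pancreas counts, 4 to 14 per library, did not pass the filter there. It entered the fit through adipose tissue, where it had been picked as called up, so its value is not read as a tissue difference. With the replicate number as a block 10 were called, all of them among the 13, and *Blvra* (adjusted p = 0.0561), *Cyp46a1* (0.0768) and *Mtrr* (0.144) were not. With library totals alone 13 were called, 5 of them shared: *Cyb5a*, *Cyp39a1*, *Cyp7b1*, *Rxra* and *Rxrb*. The other 8 named above were not called with library totals, where *Fech* turned to −0.038. *Slc25a38* was at 0.072 and *Mtrr* at 0.023 under that scaling.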

How the results depend on the processing

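Scaling by library totals alone changed the pancreas counts most: 25 of the pathway genes were called up and 4 down, in place of 9 and 18, with 6349 of all genes called in place of 3834. *Cyp2j6* turned to 0.26 there, and *Cyb5r3* was not called. In adipose tissue this setting left 8 pathway genes up in place of 13. Requiring a fold change of 2 left 2464 pancreas genes and 2228 adipose genes called, and 6 adipose pathway genes up. Leaving out single pancreas libraries gave 5 to 10 pathway genes up, 7 to 19 down and 1495 to 4265 of all genes called, lowest without Control 1 or 2, which leaves 1 Control library that is taken to vary like the others. With the replicate block 4042 pancreas genes and 3477 adipose genes were called, with 7 pathway genes up and 19 down in the pancreas and 12 and 13 in adipose tissue. Of the 9 genes, 4 were called in the pancreas and 3 in adipose tissue with that block. The cause of these changes was not tested, beyond the fewer samples or the stricter fold that the settings themselves impose.

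The pancreas comparison rests on 2 Control libraries. Whether a pancreas library and the adipose library of the same number share a mouse is not given in the sources used here. Values of genes with few counts, such as *Cyp1a1* in the pancreas and *Nr1i3* in both tissues, are limited by depth.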

Other observations

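Other cell markers were measured in the same libraries. In adipose tissue 6 of 6 lymphocyte markers fell, with sums of 9.04, 38.4 and 12.7 CPM in Control 1 to 3 and 3.01, 2.93 and 3.79 CPM in Model 1 to 3, led by *Cd79a*, and DESeq2 called 5 of the 6. The highest sum is in Control 2, the library that also holds 1.17% acinar counts, and the part of that library in the result was not tested. Mesothelial markers, led by *Upk3b*, summed to 411, 250.2 and 674 CPM in Control and 421, 145 and 158 CPM in Model libraries, and endothelial markers, led by *Cdh5*, to 956 to 1624 CPM. Of the 5 genes in each of these lists edgeR and DESeq2 called 0, with 2 mesothelial markers down and 2 endothelial markers up at an unadjusted p under 0.05. In the pancreas islet markers, led by *Ins2*, summed to 932 and 1156 CPM in Control and 1558, 1275 and 1419 CPM in Model libraries, with 1 of 6 called up. Duct markers, led by *Spp1*, ran from 66.9 to 125 CPM, macrophage markers from 28.2 to 61.7 CPM, endothelial markers from 45.2 to 66.6 CPM and fibroblast markers from 45 to 122 CPM, each with 1 called down. At an unadjusted edgeR p under 0.05 other members went up: 2 macrophage markers, 1 duct marker and 1 endothelial marker, but 0 fibroblast markers. Each of these lists had 1 marker down at that threshold.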
